A study of Mus musculus with 6 samples.

Results

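The genes of B cell precursors and of mature B cells were followed in articular cartilage from wild-type (WT) mice aged 2 or 18 months, with 3 libraries for each age. The 9 genes were Vpreb1, Igll1, Rag1, Rag2 and Dntt, used by precursors, and Cd79a, Pax5, Ebf1 and Ms4a1, used by most stages of the lineage or by its mature end. They were chosen by values already seen in these libraries, so their age differences are given as a description. Among the 33971 genes of the deposited table each of the 9 names occurred on a single row, and all 9 passed the filter on low counts that left 20397 genes. The strain, the number of animals behind a library and the presence of pooling are not given in the sources used here, so the spread between libraries may be technical. No other treatment or allele is named in the labels.

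B lymphocytes arise in the bone marrow by a fixed series of steps. Ebf1 and Pax5 commit a progenitor to the lineage, the Rag1 and Rag2 recombinase cuts the immunoglobulin heavy chain locus, and Dntt adds bases at the joints. The new heavy chain is tested on the surface with a surrogate light chain made of Vpreb1 and Igll1, which signals through Cd79a, before a conventional light chain replaces it. Ms4a1, which encodes CD20, rises as the precursor stages end and stays on mature cells, where the surrogate light chain, the recombinase and Dntt are silent. Articular cartilage is a tissue of chondrocytes without blood vessels or marrow, while the bone below it holds both.

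Positions were identical in the deposited table and in GENCODE M21 for all 9 genes, so they are on mouse build GRCm38. Igll1 (chr16:16860671-16863985) and Vpreb1 (chr16:16868403-16870843) are neighbours on the minus strand. Rag1 (chr2:101638282-101649501, minus strand) and Rag2 (chr2:101624718-101632529, plus strand) are neighbours as well, in opposite directions. Dntt (chr19:41029275-41059525, plus strand) and Ms4a1 (chr19:11249675-11266241, minus strand) share a chromosome at a distance. Cd79a (chr7:24897381-24902197, plus strand), Pax5 (chr4:44524757-44710487, minus strand) and Ebf1 (chr11:44617317-45008091, plus strand) lie elsewhere. Rag1 and Rag2 overlap B230118H07Rik on the minus strand, which held up to 2342 counts in a library, and Vpreb1 overlaps Top3b on the plus strand, with up to 4749. The library chemistry marked the strand, but whether counting used it is not given in the sources used here. The transcripts of Vpreb1 and of its paralog Vpreb2 were identical at 739 of 759 aligned bases (97.4%), so reads could be divided between them.

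The 250 bases before the start site are shown for the surrogate light chain pair, whose levels moved together, and for Rag1, the gene with the largest excess over the aged libraries in one 2-month library. Sequences are those of RefSeq on GRCm38.p6, where 8 of the 9 genes had a window and Ms4a1 had none. The windows are chr16:16869256-16869505 for Vpreb1, chr16:16863986-16864235 for Igll1 and chr2:101649533-101649782 for Rag1, all on the minus strand and written 5′ to 3′. Of the Vpreb1 window, 190 bases are an exon of a longer, noncoding Vpreb1 transcript. Capitals mark CAGGTG, the E-box read by E proteins such as Tcf3 (its reverse complement reads CACCTG), and CCCTCAGGG.

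Vpreb1: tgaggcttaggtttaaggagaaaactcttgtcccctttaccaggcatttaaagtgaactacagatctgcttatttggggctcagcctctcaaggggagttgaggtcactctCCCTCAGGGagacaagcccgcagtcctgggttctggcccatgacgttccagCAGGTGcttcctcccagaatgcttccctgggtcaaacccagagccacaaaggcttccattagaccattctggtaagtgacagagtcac

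Igll1: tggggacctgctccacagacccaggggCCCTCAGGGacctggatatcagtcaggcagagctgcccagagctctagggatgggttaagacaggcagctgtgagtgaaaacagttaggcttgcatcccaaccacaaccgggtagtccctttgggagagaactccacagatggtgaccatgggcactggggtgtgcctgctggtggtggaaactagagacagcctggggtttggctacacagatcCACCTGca

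Rag1: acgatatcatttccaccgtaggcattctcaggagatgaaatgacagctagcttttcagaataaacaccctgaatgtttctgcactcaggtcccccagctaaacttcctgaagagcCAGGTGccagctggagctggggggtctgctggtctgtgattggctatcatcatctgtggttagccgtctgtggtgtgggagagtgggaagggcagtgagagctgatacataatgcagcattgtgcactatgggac

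On either strand the E-box stood 88 bases before the start of Vpreb1, 8 before Igll1, 135 before Rag1 and 154 before Cd79a, in 4 of the 9 windows searched (Ebf1 has 2), and 17.2% of 32851 mouse windows of that length held it. CCCTCAGGG, which was looked for after the sequences had been seen, lay 139 bases before Vpreb1 and 223 before Igll1 and was in 0.511% of all windows. TCCCNNGGGA, a core of the Ebf1 site, was in 0.779% of all windows and in 0 of the 9. These matches describe letters only.

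The 6 libraries held 48171507 to 59085179 counts. After TMM normalisation the ages were compared with the quasi-likelihood test of edgeR. Called genes are those with an adjusted p (Benjamini-Hochberg) below 0.05 and a log2 fold change, 18 against 2 months, beyond 1. This held for 36.3% of the genes tested, 14.9% higher and 21.3% lower at 18 months, with a median log2 fold change of −0.02. One library stood apart from its age: in 2-month replicate 2 the summed counts of 8 neutrophil genes took 0.325% of the library, against 0.00059% and 0.00509% in 2-month replicates 1 and 3. Results are therefore given with and without it, and those without it are a description, since the library was picked by its values. Xist, which marks a second X chromosome, had 88239 to 102417 counts at 2 months and 11 to 30 at 18 months, so sex and age cannot be told apart. The study's methods describe male mice, and the Xist counts of the young libraries go against that. In whole tissue, fewer cells of a type and less RNA per cell cannot be told apart either.

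The surrogate light chain genes were near 0 in 2 of the 3 young libraries and high in the third. Vpreb1 measured 0.0504, 5.59 and 0.266 FPKM (fragments scaled by transcript length and library total) in 2-month replicates 1, 2 and 3. At 18 months it measured 2.97, 2.95 and 3.02 FPKM. Thus 2-month replicate 2 lay above every aged library, the other young libraries lay below them, and the aged libraries were almost equal (2.98 ± 0.0363, SD, n = 3). Igll1 had 0, 880 and 17 counts at 2 months and 505, 510 and 481 at 18 months, which is 0, 6.95 and 0.137 FPKM against 3.46, 3.74 and 3.49 FPKM. As for Vpreb1, 2-month replicate 2 lay above every aged library and the other young libraries below.

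The recombinase genes showed the same layout with a larger excess in the one young library. Rag1, the catalytic subunit, measured 0.0252, 6.35 and 0.0983 FPKM at 2 months and 2.04, 1.94 and 1.60 FPKM at 18 months. In counts these were 10, 2457 and 37 against 908, 806 and 674. Rag2, its partner, measured 0.0187, 1.70 and 0.0540 FPKM at 2 months and 0.648, 0.832 and 0.609 FPKM at 18 months. Normalised Rag1 counts in 2-month replicate 2 were 3.38 times the 18-month mean, and those of Rag2 2.40 times.

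Dntt, the template-independent DNA polymerase, had 0 counts in 2-month replicates 1 and 3 and 1206 in 2-month replicate 2. The aged libraries held 864, 510 and 605 counts, equal to 5.60, 3.53 and 4.13 FPKM, and the high young library reached 8.99 FPKM. It was the only one of the 9 genes without a read in 2 libraries, and its aged libraries varied most (coefficient of variation 21.8% in normalised counts). Set against a floor of 3 counts per library, the 18-month mean was at least 172-fold higher than 2-month replicates 1 and 3, and 2-month replicate 2 at least 346-fold higher. A count of 0 at this depth sets a limit and does not show absence, and floors cover counting error only.

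Cd79a, the signalling chain of the B cell receptor at every stage, was the most abundant of the 9 genes per length in 4 of the 6 libraries. It measured 0.401, 29.9 and 0.479 FPKM at 2 months and 28.1, 20.5 and 19.6 FPKM at 18 months. Here 2-month replicate 2 exceeded the highest aged library only narrowly in FPKM. Pax5, the commitment factor, measured 0.00729, 3.30 and 0.0581 FPKM at 2 months and 1.60, 1.61 and 1.40 FPKM at 18 months, so the high young library stood clear of the aged ones.

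Ebf1 was the exception at the low end. This factor is also made by mesenchymal and fat-forming cells, and it measured 0.727, 2.87 and 0.808 FPKM at 2 months and 1.44, 1.65 and 1.63 FPKM at 18 months. With 393, 1641 and 445 counts at 2 months it was the one gene of the 9 that was well counted in every young library. In 2-month replicates 1 and 3 it was the most abundant of the 9 per length. Without 2-month replicate 2 its level at 18 months was 1.88 times the young mean in normalised counts, against 16.1 to 46.7 times for the 7 other genes with reads in those libraries.

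Ms4a1 was the exception at the mature end. It had 7, 864 and 54 counts at 2 months and 1706, 1418 and 1455 at 18 months, or 0.0178, 2.38 and 0.154 FPKM against 4.10, 3.64 and 3.69 FPKM. Alone among the 9 genes it was lower in 2-month replicate 2 than in every aged library, at 0.620 times the 18-month mean of normalised counts. The ages therefore overlapped for 8 of the 9 genes and not for Ms4a1, while 68.6% of all genes tested had ages that did not overlap.

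**Figure D1:**
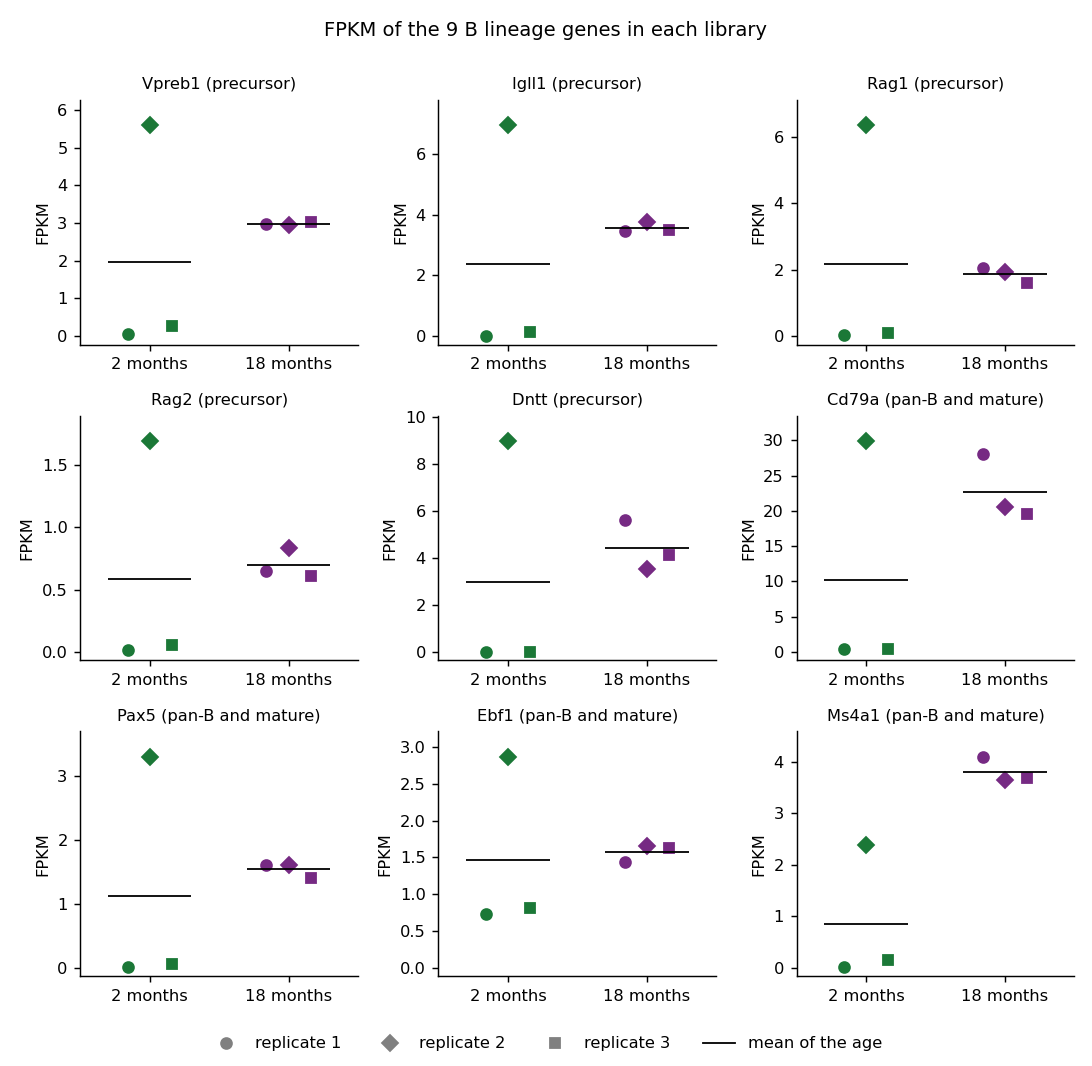
FPKM (vertical axes, linear and different for each gene) of the 9 genes in the 3 libraries of each age, with 1 point per library and a line at the mean of the age. The diamond at 2 months, replicate 2, lies above all 18-month points for 8 genes and below them for Ms4a1.

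At 18 months the order by FPKM was Cd79a (22.7 ± 4.66), Dntt (4.42 ± 1.06), Ms4a1 (3.81 ± 0.252), Igll1 (3.57 ± 0.155), Vpreb1 (2.98 ± 0.0363), Rag1 (1.86 ± 0.231), Ebf1 (1.57 ± 0.116), Pax5 (1.54 ± 0.116) and Rag2 (0.696 ± 0.119; SD, n = 3). The ranges of neighbours in this order overlapped between Dntt and Ms4a1, Ms4a1 and Igll1, Rag1 and Ebf1, and Ebf1 and Pax5. They did not overlap between the other neighbours. In 2-month replicate 2 the order changed: Cd79a still led, but Dntt, Igll1, Rag1 and Vpreb1 followed it, and Ms4a1 fell from the third place to the eighth. With 3 libraries an exact permutation test between neighbours cannot go below p = 0.1, and none was made.

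The question of the design was how aged cartilage differs from young, and for these genes the answer turned on the one young library. With all 6 libraries 0 of the 9 genes were called by edgeR, 0 had an unadjusted p below 0.05, DESeq2 called 0 and limma on log2(FPKM + 0.1) called 1, Ms4a1. The log2 fold changes ran from −0.21 for Rag1 to 2.16 for Ms4a1 with standard errors between 0.52 (Ebf1) and 2.17 (Dntt). All standard errors of edgeR fold changes given here were worked back from the test. Each is the absolute log2 fold change over the square root of the F statistic, and so is approximate. Without 2-month replicate 2 the same fit called 8 of the 9 genes, all higher at 18 months. In that fit 44.6% of 21489 genes were called, 23.3% higher and 21.3% lower. Because the genes were chosen on this contrast, nothing is read from their share.

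For Vpreb1 the log2 fold change went from 0.60 ± 1.38 (SE) with all libraries to 4.01 ± 0.65 without the one library. Igll1 went from 0.60 ± 1.81 to 5.54 ± 1.02, and Cd79a from 1.15 ± 1.55 to 5.55 ± 0.24. Rag1 turned from −0.21 ± 1.68 to 4.75 ± 0.56. Ebf1 went from 0.07 ± 0.52 to 0.94 ± 0.16 and stayed short of the fold limit. Ms4a1, at 2.16 ± 1.43 and 5.32 ± 0.74, moved in the same direction as the others. Every 18-month library lay above 2-month replicates 1 and 3 for all 9 genes, as for 38.9% of all genes in that fit.

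**Figure D2:**
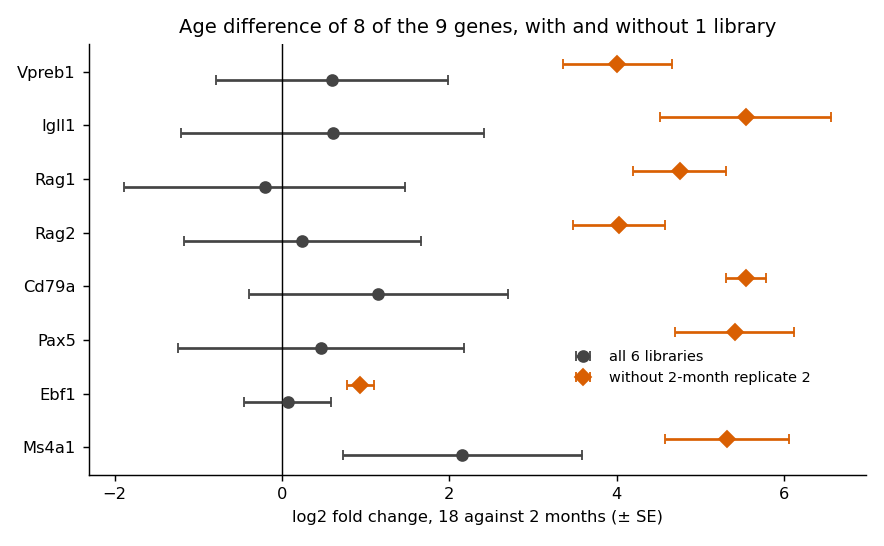
Log2 fold change of 18 against 2 months (horizontal axis, bars ± SE) for 8 of the 9 genes, from all 6 libraries (grey circles) and without 2-month replicate 2 (orange diamonds). Dntt is not drawn, because its counts of 0 leave only a lower bound; the grey values lie between −0.21 and 2.16 and the orange ones between 0.94 and 5.55.

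The 5 precursor genes were all higher in 2-month replicate 2 than in every aged library. Their normalised counts there were 1.85 (Vpreb1) to 3.38 (Rag1) times the 18-month mean, with a median of 2.02. Among the other 4 genes the values were 2.12 for Pax5, 1.80 for Ebf1, 1.31 for Cd79a and 0.620 for Ms4a1. Over all 20397 genes tested, 43.6% lay above every aged library in 2-month replicate 2 and 41.7% lay below. With a single library on one side there was no test of these values.

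The balance between the precursor and the other genes was compared within each library, so that each library was its own scale. The summed FPKM of the 5 precursor genes was divided by that of Cd79a, Pax5, Ebf1 and Ms4a1. The ratio was 0.418, 0.475 and 0.489 in the 18-month libraries (0.461 ± 0.0372, SD, n = 3). In 2-month replicate 2 it was 0.769, or 1.67 times the 18-month mean, and outside the range of the aged libraries. In 2-month replicates 1 and 3 it was 0.0817 and 0.371, where Ebf1 made up most of the divisor.

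Ebf1 was then left out. The FPKM ratio became 0.221, 0.831 and 0.804 in 2-month replicates 1, 2 and 3 and 0.436, 0.505 and 0.521 in the 18-month libraries, so 2-month replicates 2 and 3 both lay above every aged library and close to each other. As a share of the raw counts of the other 8 genes, precursor genes held 29.0% of 62 counts in 2-month replicate 1 (95% Wilson interval 19.2% to 41.3%) and 40.6% of 207 in 2-month replicate 3 (34.1% to 47.4%). They held 50.7% of 10402 counts in 2-month replicate 2 (49.8% to 51.7%). The aged libraries held 33.0% (32.02% to 34.1%), 34.7% (33.6% to 35.9%) and 34.3% (33.2% to 35.5%). The interval of 2-month replicate 2 lay above those of all other libraries, while those of the other young libraries included aged values. At 207 counts in all, 2-month replicate 3 also had a share above every aged library, but its interval reached down to aged values. No interval was made for the FPKM ratios. The intervals cover counting error only.

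**Figure D3:**
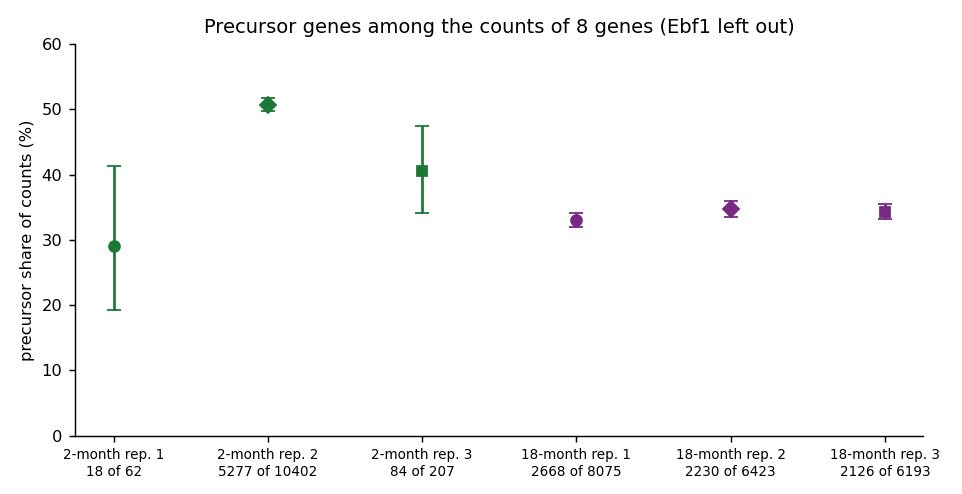
Share of the counts of 8 genes (Ebf1 left out) that fell on the 5 precursor genes (vertical axis, %), for each library, with 95% Wilson intervals and the counts under each name. The share was 50.7% in 2-month replicate 2 and between 33.0% and 34.7% at 18 months.

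Measured against Ms4a1 alone the distance was wider. Summed precursor FPKM was 12.4 times that of Ms4a1 in 2-month replicate 2 and 3.48 to 3.59 times in the aged libraries. The first is 3.50 times the 18-month mean. In 2-month replicates 1 and 3, with 7 and 54 counts of Ms4a1, the ratio was 5.31 and 3.61, also above every aged library, the latter narrowly. The divisor was then again Cd79a, Pax5, Ebf1 and Ms4a1 together. Without Vpreb1 and Igll1 that ratio in 2-month replicate 2 was 1.88 times the 18-month mean. With all 5 precursor genes it was 1.67 times, so the surrogate light chain did not carry that difference by itself.

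Other genes of the lineage were taken from lists of 65 genes in all. The counts called in each list stand beside 14.9% called higher and 21.3% lower over all genes tested. In the fit without 2-month replicate 2 these shares were 23.3% and 21.3%. Of 10 genes that accompany the precursor stages, 2 were called lower with all libraries and 0 higher (0 also at an unadjusted p below 0.05 and with DESeq2, and 2 with limma), with a median log2 fold change of 1.48. Without 2-month replicate 2, 7 were called higher and 2 lower. In 2-month replicate 2 the 8 list genes with a mean of at least 1 FPKM ranged from 0.227 to 9.92 times the 18-month mean. Their median was 1.16, with 4 above every aged library and 2 below, beside 43.6% and 41.7% of all genes tested. Vpreb3, which binds newly made immunoglobulin chains in precursors, had 9, 961 and 10 counts at 2 months and 472, 527 and 606 at 18 months, the layout of Vpreb1. Vpreb2 had 0, 47 and 0 against 52, 49 and 41. Il7r, the receptor for the cytokine that keeps precursors alive, had 0, 1027 and 8 counts at 2 months and 983, 1549 and 1492 at 18 months, so that the high young library lay among the aged ones.

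The 2 genes called lower did not follow the lineage. Lef1, a Wnt pathway factor, had 1211, 1500 and 1317 counts at 2 months and 219, 149 and 132 at 18 months (log2 fold change −3.29 ± 0.20, edgeR adjusted p = 0.000749). Erg, a factor also made by endothelial cells and young chondrocytes, had 5257, 3199 and 5341 against 2997, 2340 and 2152 (−1.18 ± 0.28, edgeR adjusted p = 0.0162). The call of Erg was lost without 2-month replicate 3 (adjusted p = 0.0553) and without 18-month replicate 2 or 3 (0.0599 and 0.0634). Both are also made outside the B lineage, and both were high in all 3 young libraries.

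Of 9 genes whose products cut, bend or join DNA with the recombinase, 3 were called higher at 18 months, with a list median of −0.09. Hmgb2, which bends DNA for the recombinase and is abundant in dividing cells, had 2045, 10303 and 2298 counts at 2 months and 56595, 54095 and 55148 at 18 months (3.31 ± 0.65, edgeR adjusted p = 0.00891). Hmgb1 rose by 1.36 ± 0.21 (edgeR adjusted p = 0.00437). Dclre1c, the Artemis nuclease that opens hairpin ends, rose by 1.49 ± 0.46 (edgeR adjusted p = 0.0389), a call lost without the filter on low counts (adjusted p = 0.0575) and whenever a library other than 2-month replicate 2 was left out (0.0892 to 0.0984). Unlike Rag1 and Rag2, all 3 were lower in 2-month replicate 2 than in every aged library, at 0.204, 0.515 and 0.629 times the 18-month mean. Xrcc4, Xrcc5, Xrcc6, Prkdc, Lig4 and Nhej1, which serve every cell, were not called. Xrcc4 and Xrcc5 were lower, at −0.64 and −0.73 (edgeR adjusted p = 0.0167 and 0.00687), but missed the fold limit. Without 2-month replicate 2, Xrcc6 was called higher (1.16 ± 0.12).

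Among 12 transcription factors of the lineage 1 was called higher and 1 lower, with a median of 1.39, and without 2-month replicate 2 these counts were 10 and 1. Bcl11a had 148, 577 and 88 counts at 2 months and 2105, 1851 and 1745 at 18 months (2.61 ± 0.66, edgeR adjusted p = 0.0211). Its call was lost without 2-month replicate 1 or any 18-month library (adjusted p = 0.0548 to 0.0595). Foxo1, which drives Rag transcription in precursors and is also made by chondrocytes, went the other way, with 7661, 4918 and 8717 counts against 2425, 1107 and 1149 (−2.50 ± 0.40, edgeR adjusted p = 0.00475). In 2-month replicate 2 the 11 factors with a mean of at least 1 FPKM ranged from 0.215 to 3.50 times the 18-month mean, with a median of 0.907.

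For 13 genes that carry the signal of the B cell receptor, 2 were called higher (median 2.03), beside 14.9% of all genes tested. Without 2-month replicate 2 all 13 were called higher, beside 23.3%. Of the 12 with a mean of at least 1 FPKM, 5 lay above every aged library in 2-month replicate 2 and 7 below. Their median was 0.62 times the 18-month mean. Dapp1, an adaptor, had 186, 819 and 190 counts at 2 months and 4304, 4769 and 4639 at 18 months (3.32 ± 0.61, edgeR adjusted p = 0.00703). Plcg2, the phospholipase of the pathway, rose by 2.03 ± 0.41 (edgeR adjusted p = 0.01003). Cd79b, the partner of Cd79a, had 38, 2542 and 34 counts against 2848, 2312 and 2391 and was not called. Blnk, the linker needed to leave the precursor stage, had 10, 929 and 23 against 985, 651 and 772 and was not called either.

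The 12 mature B genes included 3 called higher (median 2.40), and 11 without 2-month replicate 2. Ighm, the heavy chain of IgM, had 543, 12347 and 784 counts at 2 months and 53259, 46100 and 46414 at 18 months (3.26 ± 1.23, edgeR adjusted p = 0.0689). Ighd, the heavy chain of the IgD that mature naive cells add, had 113, 573 and 133 against 1699, 935 and 1081 (1.97 ± 0.64, edgeR adjusted p = 0.0445). The Ighd call was lost without the filter (adjusted p = 0.0638) and without any library other than 2-month replicate 2 (0.0834 to 0.119). Cr2, a complement receptor of mature cells, had 25, 39 and 31 against 307, 137 and 88 (2.19 ± 0.50, edgeR adjusted p = 0.0151), a call lost without 2-month replicate 3 (adjusted p = 0.0544) and with limma on log2(FPKM + 1) (0.065). Fcer2a, which encodes CD23, was not called, with 118, 222 and 101 against 662, 115 and 156. Of the 7 mature genes with a mean of at least 1 FPKM, 0 lay above every aged library in 2-month replicate 2. Below every aged library lay 5, as Ms4a1 did. The 7 genes ranged from 0.278 to 1.14 times the 18-month mean, with a median of 0.472. Over all genes tested, 43.6% lay above and 41.7% below.

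**Figure D4:**
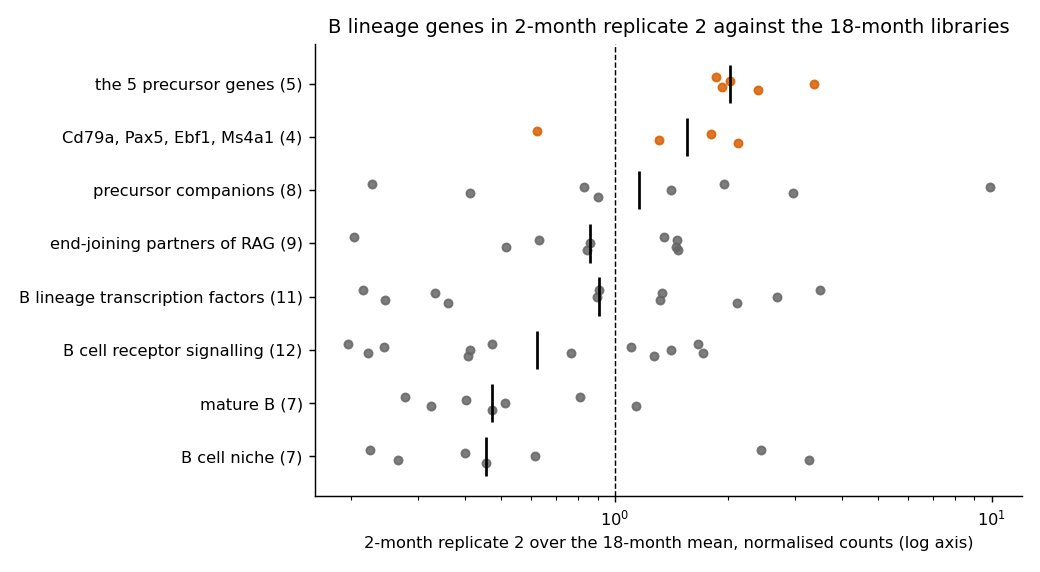
Normalised counts in 2-month replicate 2 divided by the 18-month mean (horizontal axis, logarithmic) for the 5 precursor genes and the other 4 genes (orange) and for list genes with a mean of at least 1 FPKM (grey), with 1 point per gene, a bar at each median and the number of genes in brackets. The 5 precursor genes lie between 1.85 and 3.38, Ms4a1 at 0.620 and the mature B list around a median of 0.472.

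The niche that feeds precursors in marrow was described by 9 genes, of which 1 was called higher and 2 lower (median 0.98). Cxcl12, the chemokine that holds precursors near stromal cells, had 610, 18521 and 651 counts at 2 months and 75969, 75190 and 76494 at 18 months (3.38 ± 1.40, edgeR adjusted p = 0.0888). Il7, the cytokine itself, had 14, 132 and 4 counts against 80, 79 and 75. Kitl, the ligand of Kit, rose by 2.48 ± 0.79 (edgeR adjusted p = 0.0431), but not without the filter (adjusted p = 0.0618) or without any library other than 2-month replicate 2 (0.0712 to 0.114). Foxc1 and Pdgfra, genes of mesenchymal cells in general, fell by 1.99 and 1.10 on the log2 scale (edgeR adjusted p = 0.000904 and 0.00207). Without 2-month replicate 2, 6 genes were called higher and 1, Foxc1, lower, as Pdgfra fell by 0.98 and missed the fold limit.

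Markers of other cells moved with the same libraries, and their part in the values of the B lineage genes was not tested. The 8 neutrophil genes were those that set 2-month replicate 2 apart, so their calls without it are a description. Of them, 0 were called with all libraries (2 had an unadjusted p below 0.05, DESeq2 called 7 and limma 8). Without 2-month replicate 2, 8 were called. Their summed counts took 3.69% to 3.997% of the aged libraries, and those of 7 erythroid genes 2.33% to 3.11%, against 0.0204%, 0.562% and 0.0590% in the 2-month libraries. S100a8 had 90, 33842 and 604 counts at 2 months and 472396 to 531213 at 18 months, and Hbb-bs had 3961, 120570 and 12852 against 586010 to 758525. In 2-month replicate 2 the neutrophil genes stood at 0.0700 to 0.118 times the 18-month mean and the erythroid genes at 0.159 to 0.213 times, below all of the 9 B lineage genes.

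All 5 T cell genes with a mean of at least 1 FPKM were lower in the one high young library than in every aged library. Over all genes tested, 41.7% lay below the aged libraries there. Of 10 T cell genes tested, 9 were called higher at 18 months, and Cd3e and Cd8b1, at 21 and 6 counts in 2-month replicate 2, had 0 in both other young libraries. Dntt, Rag1 and Rag2 are shared with thymocytes, and Ptcra, the precursor chain of the T cell receptor, had 0 counts in 2-month replicate 2 and in all aged libraries, with 10 and 4 counts in 2-month replicates 1 and 3. Cd4 had 4, 197 and 28 counts at 2 months and 759, 736 and 699 at 18 months. Of 7 plasma cell genes 3 were called higher. Igkc, the kappa light chain, had 20, 2350 and 34 counts against 115129, 59327 and 58593. Jchain had 14, 355 and 23 against 24687, 18765 and 18559, and Tnfrsf17 had 0 in all young libraries. Sdc1, Mzb1, Prdm1 and Xbp1 were not called, with log2 fold changes of −0.68, 2.77, 0.54 and −0.11. Among 6 genes of plasmacytoid dendritic cells, which also use some B lineage genes, 1 was called lower and 0 higher by edgeR (0 also at an unadjusted p below 0.05 and with DESeq2, but 1 with limma and 4 without 2-month replicate 2), and Ly6d had 6, 795 and 22 counts against 1343, 687 and 829.

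The tissue itself differed between the ages. All 10 chondrocyte genes were called lower at 18 months with and without 2-month replicate 2. Their summed counts took 3.42% to 5.61% of the young libraries and 0.0357% to 0.105% of the aged ones, and Col2a1, the defining collagen of cartilage, had 716640 to 1816399 counts against 7443 to 13192. In 2-month replicate 2 the chondrocyte share was the highest of the 6 libraries. For Ebf1, genes of fat and mesenchymal cells were set beside it: Fabp4 was called higher (2.84 ± 0.37, edgeR adjusted p = 0.00269) among 6 tested, and Col1a1 had 10559, 545386 and 22118 counts at 2 months and 115288 to 125783 at 18 months.

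**Figure D5:**
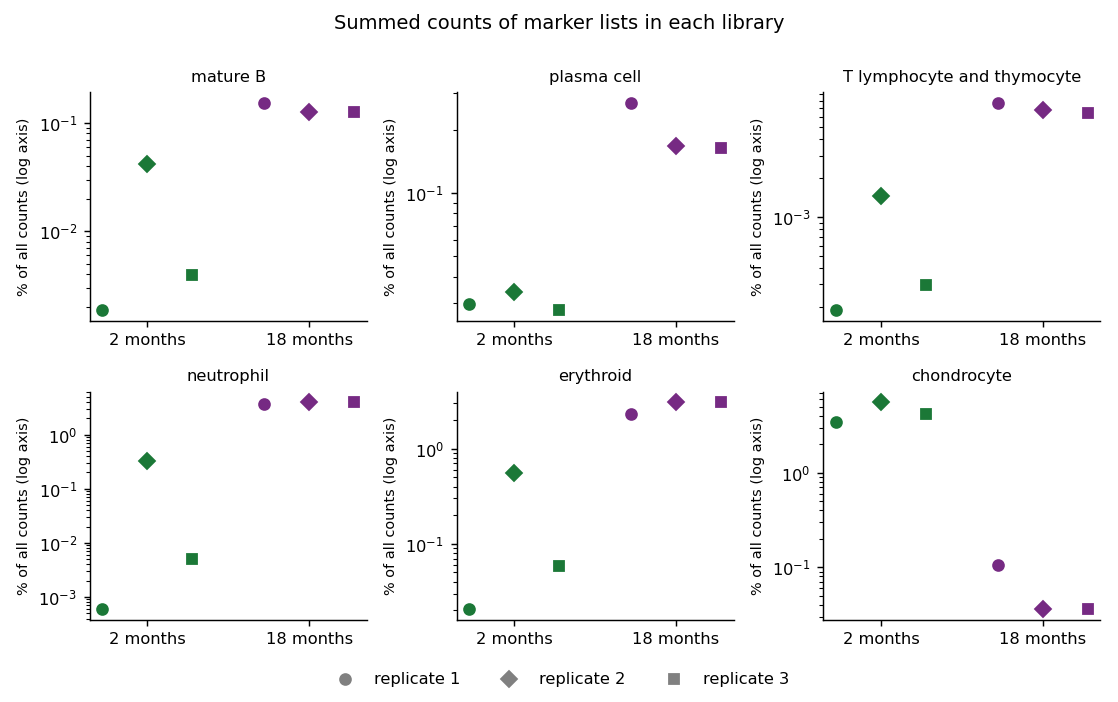
Summed counts of 6 marker lists as a percentage of all counts (vertical axes, logarithmic and different for each list) in each library, with 1 point per library. In 2-month replicate 2 the neutrophil, erythroid and mature B shares lie between those of the other young libraries and the aged ones, and the chondrocyte share, at 5.61%, is the highest.

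The genes with the pattern most like Vpreb1 were looked for among 13892 genes by the Pearson correlation of log2(FPKM + 0.1) over the 6 libraries. The 5 nearest were Kdr (0.999), Slc36a2 (0.999), Tie1 (0.998), Mmrn2 (0.998) and Spib (0.998). Kdr and Tie1 are receptors of endothelial cells, and Spib is a factor of B cells and plasmacytoid dendritic cells. For Ms4a1 the nearest were Wdfy4, Tcirg1, Lrmp, Parp14 and Mfng, each at 0.9988 or more. Kdr measured 0.166, 4.87 and 0.475 FPKM at 2 months and 2.66, 2.94 and 2.85 FPKM at 18 months, above the aged libraries in 2-month replicate 2 as Vpreb1 was. Wdfy4 measured 0, 4.26 and 0.149 FPKM against 9.07, 7.21 and 7.19 FPKM, below them as Ms4a1 was. With 6 points from 2 ages such correlations are a description.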

How the data were processed

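The RNA libraries came from articular cartilage of 2-month-old (3) and 18-month-old (3) mice. The authors made poly(A)-selected libraries whose strand and molecules were tagged, and they deposited whole-number counts per gene without normalization, and FPKM values scaled by transcript length and library total. The submitters' processing notes name cutadapt 1.9, HISAT2 2.0.4, UMI-tools, StringTie 1.3.4d, DESeq2 and edgeR. The build, the annotation and the roles of these tools are not given in the sources used here.

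Counts were fitted by edgeR 4.0.16 in R 4.3.3 (TMM, filterByExpr, quasi-likelihood test) without a replicate block, and p-values were adjusted over all genes tested. The alternatives were other size factors, no filter, limma 3.58.1 on log2(FPKM + 0.1) with other pseudocounts, DESeq2 1.42.0, a replicate block and each library left out. A further alternative called genes by the adjusted p alone, without the fold limit. Fits were tested on simulated counts with the same dispersion for every gene, well-counted changed genes and no outlying library. That check therefore does not cover a library such as 2-month replicate 2 or counts near 0. The 9 genes and the lists were chosen with earlier results of these data known. Named list genes are up to 3 called genes per list with a mean of at least 1 FPKM and the largest change, 12 always named (1 of them is not reported here), and up to 2 abundant genes of each marker list. Xist, Tnfrsf17, Cd3e, Cd8b1, Ptcra and the list genes named as not called were added after their values were seen. Promoter windows were read from RefSeq, and plots were made in matplotlib 3.10.9 under Python 3.11.15.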

Additional observations from a re-analysis of the deposited data

How the results depend on the processing

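The number of genes called was 7401 with all libraries and 5258 to 9556 under the alternatives that kept all libraries and the fold limit. It was 10457 by the adjusted p alone, and 5640 to 9583 when each library was left out in turn. Among the B lineage lists 10 genes were called higher and 5 lower. The number higher was 20 with DESeq2 and 30, 27 and 28 with limma on log2(FPKM + 0.1), log2(FPKM + 1) and log2(FPKM + 0.01), and it ran from 5 to 51 over the fits that left out 1 library, with 51 when 2-month replicate 2 was absent. Leaving out 2-month replicate 3 or any of the 18-month libraries gave 5 or 6. The number lower was 3 with limma on log2(FPKM + 1). Rag1 turned from −0.21 to 1.84, 0.50 and 2.69 in those limma fits, 3.13 with the replicate block and −0.78 to 4.75 over the fits without 1 library. Over the latter, Rag2 ran from −0.32 to 4.03, Dntt from −0.0136 to 12.23 (a fitted value against 2 libraries at 0 counts, which depends on the prior count and is no estimate of size), Pax5 from −0.11 to 5.41, Ebf1 from −0.24 to 0.94, Fcer2a from −0.31 to 1.17 and Il7 from −0.0599 to 2.79, each below 0 without some 1 library other than 2-month replicate 2. The cause was not tested.

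The ratio of precursor to other genes was 0.461 at 18 months and 0.407 at 2 months. At 18 months it was 0.422 from counts scaled by library size, 0.606 from geometric means of FPKM + 0.1, 3.55 against Ms4a1 alone, 0.236 without Vpreb1 and Igll1 and 1.95 without Cd79a, an alternative chosen after seeing the data. At 2 months it was 0.323 from scaled counts, 0.652 from geometric means, 0.619 without Ebf1, 7.11 against Ms4a1 alone, 0.194 without Vpreb1 and Igll1 and 1.38 without Cd79a, and 0.226 to 0.570 when a library was left out. Without Ebf1 the 18-month ratio was 0.487. The 2-month mean was the higher without Ebf1, by geometric means, against Ms4a1 alone and without 2-month replicate 1 (0.570). In the other settings it was the lower. In each setting with all 6 libraries 2-month replicate 2 had the highest ratio, without Ebf1 by a small margin over 2-month replicate 3. Replicate numbers gave no sign of pairing: deviations from the age means correlated at 0.0337, 0.0442 and −0.0241 for equal numbers. For unequal numbers the correlations ran from −0.0548 to 0.0531. With 3 libraries for each age, 1 of them far from the others, this check cannot exclude a pairing. With a replicate block 6032 genes were called, and in the B lineage lists 8 higher and 5 lower, with the calls of Ighd (adjusted p = 0.0671) and Cr2 (0.0564) lost. Depth limits the B lineage genes in 2-month replicates 1 and 3, where 62 and 207 counts fell on the 8 genes other than Ebf1.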
